A study of Homo sapiens with 12 samples.

Results

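Histone proteins package nuclear DNA, and the genes described here are the clustered, replication-dependent histone genes of human cells, read in RNA from 2 medulloblastoma cell lines. They were chosen by gene symbol (H1-1 to H1-6, and the numbered H2AC, H2BC, H3C and H4C genes) and by having 10 or more counts in at least 3 of the 12 libraries. The rule found 32 genes among 69 rows with such symbols, in a count table of 63241 rows of which 42640 carry a symbol. Of the other named rows, 12 had counts but missed the rule and 25 were listed at 0 in all 12 libraries.

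The 4 groups were ONS76 cells under fluid shear stress (FSS), static ONS76 cells, DAOY cells under FSS and static DAOY cells, with 3 libraries each. ONS76 and DAOY are established human medulloblastoma lines, labelled wild type, and every group was kept in artificial cerebrospinal fluid on 6-well plates. FSS was made by an orbital shaker turning at 100 rpm inside the incubator for 18 h, so shear cannot be told apart from any other effect of shaking. Libraries were made from RNA selected for its poly(A) tail. How the replicate cultures came about is not stated, and p-values therefore cover only the spread seen among the libraries.

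Histones H2A, H2B, H3 and H4 form the octamer around which DNA is wound, and the linker histone H1 binds where DNA enters and leaves it. Their clustered genes are mostly transcribed in S phase, when new DNA needs packaging. Their mRNAs normally end, without a poly(A) tail, just after a stem-loop that is bound by the stem-loop binding protein SLBP and recognised with the help of U7 snRNP. Some of these genes also make polyadenylated transcripts that run past the stem-loop, and such transcripts are known from cells that leave the cycle or differentiate. PolyA selection is meant to keep only the tailed share of histone mRNA, and a change in these values cannot be told apart from a change in that share. How much untailed RNA was carried over was not tested.

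The following sequences show the start sites of 4 members whose responses are described one by one in the results. H4C14 (higher under FSS in both lines), H4C11 (lower under FSS in ONS76) and H3C10 (higher under FSS in ONS76) are each given from 250 bases before to 50 bases after the RefSeq start, on GRCh38.p14. The H2AC20 window also holds the space shared with H2BC21, its divergent neighbour. Capitals mark matches, on either strand, to CCAAT (the site of NF-Y), to TATAAA (the TATA box), to ATTTGCAT (the octamer known from H2B promoters) or to TTTCGCGC (an E2F-type site). The H4C14 window lies at chr1:149832407-149832706 on the plus strand, H4C11 at chr6:27823842-27824141 on the plus strand, H3C10 at chr6:27809801-27810100 on the plus strand and H2AC20 at chr1:149886668-149886967 on the plus strand.
H4C14: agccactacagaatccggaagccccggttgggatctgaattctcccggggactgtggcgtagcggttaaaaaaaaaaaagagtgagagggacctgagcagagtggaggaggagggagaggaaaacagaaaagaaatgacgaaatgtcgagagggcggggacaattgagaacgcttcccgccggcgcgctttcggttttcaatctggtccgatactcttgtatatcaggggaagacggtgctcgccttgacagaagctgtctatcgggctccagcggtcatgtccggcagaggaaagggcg
H4C11: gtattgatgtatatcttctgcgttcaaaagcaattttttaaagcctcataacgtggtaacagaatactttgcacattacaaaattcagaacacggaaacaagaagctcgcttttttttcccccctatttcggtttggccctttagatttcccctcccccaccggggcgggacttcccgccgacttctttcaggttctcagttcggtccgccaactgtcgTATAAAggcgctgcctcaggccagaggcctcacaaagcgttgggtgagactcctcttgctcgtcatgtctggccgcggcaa
H3C10: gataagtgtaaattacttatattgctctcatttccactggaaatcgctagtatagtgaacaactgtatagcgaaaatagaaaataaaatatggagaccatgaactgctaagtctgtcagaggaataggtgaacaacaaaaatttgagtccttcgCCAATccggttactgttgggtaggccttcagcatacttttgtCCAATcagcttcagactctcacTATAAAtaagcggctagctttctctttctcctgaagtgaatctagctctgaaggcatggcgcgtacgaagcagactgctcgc
H2AC20: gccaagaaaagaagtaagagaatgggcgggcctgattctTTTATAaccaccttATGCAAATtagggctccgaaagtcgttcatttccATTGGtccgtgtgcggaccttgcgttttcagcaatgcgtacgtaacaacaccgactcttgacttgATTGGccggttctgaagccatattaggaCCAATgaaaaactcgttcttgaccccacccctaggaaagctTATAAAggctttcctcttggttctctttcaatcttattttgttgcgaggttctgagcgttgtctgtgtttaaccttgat
None of the 4 motifs was found in these letters of H4C14, which says nothing on the factors that bind there. The H4C14 and H4C15 windows were identical over all 300 bases, and those of H4C11 and H4C12 over 295 of 300. H2AC18 and H2AC19 shared a run of 299 bases, and H3C14 and H3C15 a run of 296. H4C14 and H4C11, which moved in opposite directions in ONS76, shared no run longer than 10 bases in these windows.

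Of the 30 members with a RefSeq promoter window, 80% held CCAAT, against 35.7% of all 27305 windows in the table. CCAAT stood in all 8 H2A, all 8 H2B and all 6 H3 windows, but in 1 of 7 H4 windows. TATAAA was present in 66.7% of member windows and in 12.0% of all windows. ATTTGCAT was present in 30% of member windows (6 of 8 H2B, 3 of 8 H2A, none of the H3 or H4 windows) and in 1.80% of all windows. TTTCGCGC was present in 23.3% of member windows, all of them H2A or H2B, and in 0.546% of all windows. The motifs were searched one by one and matches may overlap, and the windows of divergent H2A and H2B neighbours overlap too, so such pairs share matches.

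The stem-loop, read from GENCODE 29 transcripts, is shown for members whose annotated transcripts reach it, with the paired stem and its loop in capitals.
H4C14: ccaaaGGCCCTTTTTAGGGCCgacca
H4C11: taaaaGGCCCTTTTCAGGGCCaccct
H2AC18: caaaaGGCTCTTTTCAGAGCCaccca
H2BC21: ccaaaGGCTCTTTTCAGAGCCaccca
H3C10: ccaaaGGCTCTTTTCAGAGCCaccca
Transcripts of 18 of the 32 members held this element in the annotation. The annotated transcript ran 1729 bases past it in H2BC21, 769 bases in H3C10 and 194 bases in H4C14, but 35 bases in H2AC18 and 6 bases in H4C11. Where a transcript model stops at the stop codon, as for H2AC20 and H2BC12, the annotation says nothing on the stem-loop.

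Of the 69 named rows, the H2A family gave 9 members of 17, the H2B family 8 of 18, the H3 family 7 of 13, the H4 family 7 of 15 and H1 1 of 6 (H1-2). By place, members made up 10 of 11 rows at 1q21, both rows at 1q42, 14 of 21 rows in the centromeric block of 6p22, 5 of 34 rows in its telomeric block and the single row at 12p12. In the telomeric block, 22 of the 23 histone rows from H4C3 to H4C8 (chr6:26103933-26285534, GRCh38.p14 positions) were listed at 0 in every library, with H2BC4 (1122 counts over the 12 libraries) as the exception. The run of zeros was wider than the histone genes. All 43 named rows from HFE to HMGN4 except H2BC4 were at 0, 8 protein-coding genes of other kinds among them, while the neighbours H1-2 and ABT1 had 16517 and 23287 counts. Of the histone rows 36.2% were at 0 in every library, against 14.3% of all protein-coding rows. Some genes of the lists described below were also at 0 in every library, CDK2, HAT1, ASF1A, POLA2 and PABPN1 among them. These zeros are reported as listed and not read as silence.

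Members at the edge of the rule were H2AC12, H4C2 and H4C9, which reached 10 counts in 3 libraries with highest counts of 14, 17 and 12. Just outside it, H2AC16 and H2AC4 reached 10 counts in 2 libraries, each with a highest count of 11. After the filter on low counts, 31 of the 32 members were tested (not H4C9) among 19631 genes.

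Library totals ran from 38.1 to 49.3 M counts, and the members together took 0.0161 to 0.0226% of them. ONS76 had 6 of 16 neural and medulloblastoma markers at 1 CPM or more, and DAOY 11 of 16. Of 5 fibroblast and mesenchymal markers, 3 in ONS76 and 5 in DAOY reached 1 CPM, with sums of 1110 to 1298 and 5661 to 6241 CPM. Of 6 epithelial markers, 4 in ONS76 and 2 in DAOY did so, all of them keratins, while EPCAM and CDH1 stayed under 1 CPM in every library. Immune markers summed to at most 1.03 CPM in ONS76 and 4.90 CPM in DAOY. Endothelial markers moved with the condition, though not all in the same direction. PECAM1 had 20.8 to 24.9 CPM in ONS76 FSS, against 12.5 to 13.9 CPM in static ONS76, and 11.8 to 14.8 CPM in DAOY FSS, against 4.86 to 7.51 CPM in static DAOY. CDH5 had 16.5 to 17.0 CPM in ONS76 FSS, against 11.8 to 13.5 CPM in static ONS76, and at most 1.42 CPM in DAOY. VWF went the other way in ONS76, with 1.45 to 1.83 CPM under FSS, against 1.99 to 2.69 CPM static. In DAOY it had at most 0.33 CPM, and the conditions overlapped. The part of these markers in the histone results was not tested. SOX2 and ATOH1 were not among the markers at 1 CPM or more in either line.

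Several members are copies that reads cannot separate. H2AC18 and H2AC19, H3C14 and H3C15, H4C14 and H4C15, and H4C11 and H4C12 have identical coding sequences in the annotation (393, 411, 312 and 312 bases). The counts of the pairs H2AC18 and H2AC19, H3C14 and H3C15, and H4C14 and H4C15 differed by at most 9, 4 and 17 in any library, far less than counting error gives between separate genes (mean squared standardised difference 0.0122, 0.0301 and 0.0648, against 1). These pairs are 1 measurement each, entered in the table as 2 rows. H4C11 and H4C12 differed by up to 42 counts, about what counting error gives (0.992), and are also reported as uncertain.

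Per length (TPM, the deposited values scaled by gene length and library size), H1-2 and H2BC12 were the most abundant members over the 12 libraries. H1-2, a linker histone, stood at 80.9 ± 3.26 TPM in ONS76 FSS, 73.2 ± 2.25 in static ONS76, 218 ± 7.78 in DAOY FSS and 191 ± 5.31 in static DAOY (SD, n = 3). H2BC12 stood at 97.2 ± 6.50, 63.5 ± 3.19, 208 ± 3.69 and 148 ± 2.84 TPM in the same 4 groups. H2AC25 followed with 111 ± 9.16, 121 ± 3.26, 35.2 ± 0.400 and 35.2 ± 3.60 TPM. At the other end H2BC26 did not exceed 0.753 TPM as a group mean.

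Summed over the members, FSS cells had more histone RNA in these polyA-selected libraries than static cells of the same line. Tailed and untailed histone RNA were not measured apart. The sum was 627 ± 15.05 TPM in ONS76 FSS and 545 ± 11.2 TPM in static ONS76, and 916 ± 17.6 TPM in DAOY FSS and 711 ± 17.0 TPM in static DAOY (SD, n = 3). The libraries of the 2 conditions did not overlap in either line. These sums count the copied pairs above as 2 rows each, and in bulk RNA more cells with a transcript and more of it per cell cannot be told apart.

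The H3 sum had the largest ratio in ONS76, with 36.5 ± 3.96 TPM under FSS and 19.6 ± 3.13 TPM static. In DAOY the H3 sum was 54.9 ± 10.4 TPM under FSS and 36.1 ± 3.12 TPM static. H2B summed to 113 ± 8.57 TPM in ONS76 FSS and 73.7 ± 1.97 TPM in static ONS76, and to 287 ± 6.65 TPM in DAOY FSS and 214 ± 8.84 TPM in static DAOY. No test was run on these sums, since the members were chosen with results known.

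H2A gave 267 ± 17.2 TPM in ONS76 FSS and 233 ± 5.44 TPM in static ONS76, and 268 ± 18.7 TPM in DAOY FSS and 207 ± 7.83 TPM in static DAOY. H4 was the exception in ONS76, with 130 ± 10.4 TPM under FSS and 146 ± 5.17 TPM static, while DAOY had 87.6 ± 10.6 TPM under FSS and 62.2 ± 1.49 TPM static. The ONS76 sums of H2A and H4 depended on the unit. As summed CPM, which does not divide by gene length, H2A overlapped between the conditions in ONS76 (88.3 ± 7.19 CPM under FSS, 87.3 ± 1.01 CPM static). In the same unit H4 was higher under FSS in ONS76 (43.8 ± 2.73 CPM, against 34.4 ± 1.72 CPM static), and the gene model behind TPM was longer for H4C14 than for H4C11 (2.12 and 0.532 times that of H1-2, as counts and TPM imply).

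**Figure D1:**
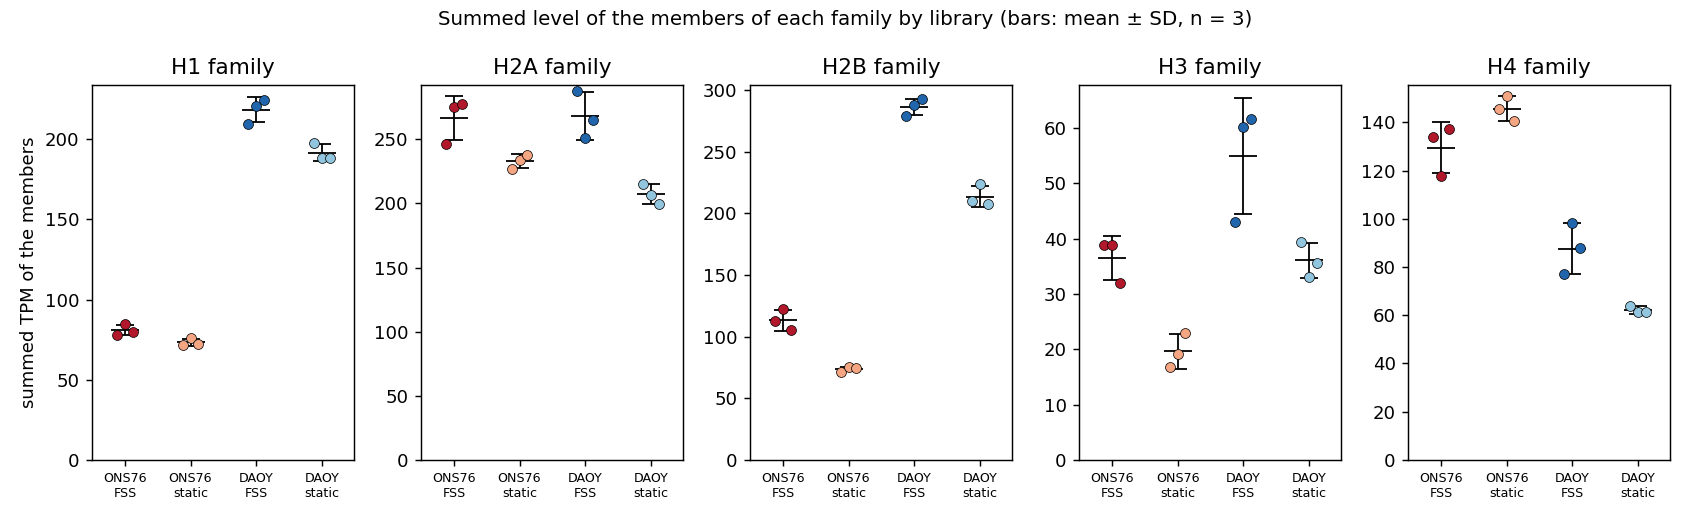
Summed TPM of the members of each histone family by library. Points are libraries, bars are mean ± SD (n = 3), and the y axes start at 0. In ONS76, H3 stands at 36.5 TPM under FSS and 19.6 TPM static, and H4 is the family whose FSS sum lies below the static one.

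Gene by gene, under FSS in ONS76 11 of 31 tested members were higher and 4 lower (edgeR quasi-likelihood test, Benjamini-Hochberg adjusted p under 0.05), which is 48.4% of the members, while 28.0% of all tested genes were called (14.1% higher, 13.9% lower). Without static ONS76 libraries 1 and 2, an alternative chosen after seeing the data, 6 were higher and 2 lower in ONS76. In DAOY 10 were higher and 1 lower, 35.5% of the members, near the 39.7% of all tested genes (19.5% higher, 20.1% lower). With H2AC18 and H2AC19, H4C14 and H4C15, and H3C13 to H3C15 each summed into 1 row, 8 were higher in ONS76 and 7 in DAOY. The median log2 fold change of the members was 0.24 in ONS76 and 0.19 in DAOY, against 0 and 0.00 over all tested genes.

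Genes called higher in both lines were H2AC18, H2AC19, H2BC11, H2BC12, H2BC21, H3C14, H3C15, H4C14 and H4C15. H4C14 and H4C15 had the smallest adjusted p of the tested members in each line. In all, 14 members were called in neither line, H2AC25, H2BC26, H3C12 and H2BC18 among them. All 31 fold changes are drawn with their errors in the plot of fold changes by family.

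H4 genes nearly all encode the same protein, so the members differ in place and RNA. H4C14 had 18.9, 18.5 and 20.8 CPM in ONS76 FSS libraries, against 10.6, 11.2 and 10.4 CPM in static ONS76. In DAOY it had 13.7, 16.2 and 14.4 CPM under FSS, against 8.74, 9.21 and 8.89 CPM static. All FSS libraries lay above all static libraries of their line (CPM here are TMM-scaled). The log2 fold change was 0.85 ± 0.0853 (SE) in ONS76 and 0.72 ± 0.0863 in DAOY (edgeR adjusted p 2.18e-09 and 3.30e-08).

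H4C11 went the other way in ONS76. It had 5.01, 4.27 and 5.27 CPM in ONS76 FSS libraries, against 8.70, 8.75 and 8.34 CPM in static ONS76, with no overlap. In DAOY it was low in both conditions, with 0.895, 1.32 and 1.19 CPM under FSS and 1.20, 1.07 and 1.01 CPM static. The log2 fold change was -0.83 ± 0.136 in ONS76 and 0.06 ± 0.197 in DAOY (edgeR adjusted p 1.51e-05 and 0.845), and H4C12 gave -0.80 and 0.04. The difference between the lines was called for both genes, at 0.89 for H4C11 and 0.84 for H4C12 (adjusted p 0.00743 and 0.0156). H4C16, the member at 12p12, gave -1.50 ± 0.558 in ONS76 (adjusted p 0.0421), on at most 0.581 CPM in any ONS76 library. That call was lost without FSS library 2 (-1.33) or 3 (-1.18), or static library 1 (-1.56) or 2 (-1.32). Without static ONS76 libraries 1 and 2, the difference between the lines was 0.83 for H4C11 and 0.80 for H4C12, and neither was called, and H4C12 was not called without DAOY FSS library 3 (0.75).

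In the H3 family, H3C14 had 1.95, 1.69 and 1.51 CPM in ONS76 FSS libraries, against 0.546, 0.526 and 1.14 CPM in static ONS76. DAOY gave 1.77, 3.00 and 3.40 CPM under FSS, against 1.63, 1.25 and 1.46 CPM static. No library overlapped with the other condition of its line, and the third static ONS76 library lay nearest to the FSS libraries. Its log2 fold change was 1.23 ± 0.289 in ONS76 and 0.91 ± 0.246 in DAOY (adjusted p 0.00135 and 0.00316). Without static ONS76 libraries 1 and 2 the ONS76 value was 0.59 for H3C14 and 0.73 for H3C15 and neither was called (an alternative chosen after seeing the data).

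H3C10 separated the lines. It had 3.67, 4.05 and 3.68 CPM in ONS76 FSS libraries, against 1.34, 0.747 and 1.48 CPM in static ONS76. DAOY gave 0.895, 1.42 and 0.873 CPM under FSS, against 1.65, 1.36 and 1.44 CPM static. The ONS76 conditions lay far apart, and the DAOY conditions overlapped. The log2 fold change was 1.67 ± 0.227 in ONS76 (adjusted p 7.97e-07) and -0.47 ± 0.242 in DAOY (adjusted p 0.127), and the difference of the responses, DAOY minus ONS76, was -2.14 ± 0.332 (adjusted p 1.34e-05). For this difference, 2 of 31 tested members were called higher and 1 lower. That is 9.68% of the members, against 19.1% of all tested genes (8.34% higher, 10.7% lower).

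Among H2B genes, which carry the octamer motif most often, H2BC12 rose in both lines. ONS76 FSS libraries had 17.3, 19.5 and 17.4 CPM, against 11.6, 12.4 and 12.0 CPM in static ONS76. DAOY FSS libraries had 29.4, 29.2 and 30.2 CPM, against 20.9, 21.3 and 20.8 CPM in static DAOY. The conditions did not overlap in either line, and the log2 fold change was 0.59 ± 0.0723 in ONS76 and 0.49 ± 0.0654 in DAOY (adjusted p 1.18e-07 and 2.39e-07).

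H2BC11 and H2BC21 also rose in both lines. H2BC21 had 3.62, 4.88 and 3.31 CPM in ONS76 FSS libraries, against 2.28, 1.80 and 2.59 CPM in static ONS76, and 14.3, 13.5 and 12.2 CPM in DAOY FSS, against 10.3, 11.1 and 8.23 CPM in static DAOY. Its log2 fold change was 0.83 ± 0.164 and 0.43 ± 0.120 (adjusted p 0.000211 and 0.00413). H2BC11 gave 0.67 ± 0.197 in ONS76 and 0.41 ± 0.140 in DAOY (adjusted p 0.00986 and 0.0196). Its call was lost in ONS76 without FSS library 1 (0.55) or static library 2 (0.54), and in DAOY without FSS library 2 (0.39), FSS library 3 (0.39) or static library 3 (0.36). H2BC21 was not called in DAOY without static library 3 (0.32), nor in ONS76 without static libraries 1 and 2 (0.61). H2BC4 was called lower in DAOY (-0.57 ± 0.186, adjusted p 0.0138), with 2.43, 2.32 and 2.69 CPM under FSS against 4.13, 3.08 and 3.84 CPM static, and gave 0.07 in ONS76. The call was lost without DAOY static library 1 (-0.48), static library 3 (-0.54) or FSS library 2 (-0.54).

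In the H2A family, H2AC18 had 11.8, 14.4 and 13.8 CPM in ONS76 FSS libraries, against 8.11, 8.83 and 9.29 CPM in static ONS76. In DAOY it had 18.1, 14.98 and 16.1 CPM under FSS, against 12.8, 11.7 and 11.1 CPM static. FSS libraries lay above static libraries in both lines, and the log2 fold change was 0.61 ± 0.0981 and 0.47 ± 0.0919 (adjusted p 1.10e-05 and 0.000109).

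H2AC20 fell in ONS76 while its divergent neighbour H2BC21, whose start lies 236 bases away, rose. H2AC20 had 0.897, 0.981 and 1.17 CPM in ONS76 FSS libraries, against 2.30, 2.52 and 2.203 CPM in static ONS76, with no overlap. In DAOY the values were 0.229, 0.200 and 0.459 CPM under FSS and 0.468, 0.363 and 0.566 CPM static, which overlapped. The log2 fold change was -1.20 ± 0.270 in ONS76 (adjusted p 0.000874) and -0.66 ± 0.366 in DAOY (adjusted p 0.159), and the ONS76 call was lost without static libraries 1 and 2 (-1.11, adjusted p 0.0562). For H2AC20 the difference of the responses, DAOY minus ONS76, was 0.54 ± 0.463 and was not called (edgeR adjusted p 0.476). H2AC25, the most abundant H2A member in ONS76, had 59.9, 67.4 and 74.3 CPM in ONS76 FSS libraries and 77.5, 71.0 and 75.0 CPM in static ONS76, overlapping, at -0.15 (adjusted p 0.0658).

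The linker histone gene H1-2 had 20.9, 23.3 and 22.4 CPM in ONS76 FSS libraries and 20.4, 20.8 and 20.1 CPM in static ONS76. In DAOY it had 44.5, 45.7 and 47.2 CPM under FSS and 41.9, 39.2 and 39.2 CPM static. It was called higher in DAOY (0.19 ± 0.0537, adjusted p 0.00454) and not in ONS76 (0.12 ± 0.0605, adjusted p 0.147), and the difference of the responses was 0.07 (adjusted p 0.609). H2AC13 was called higher in ONS76 (1.14 ± 0.397, adjusted p 0.0296, with 1.58, 1.69 and 1.17 CPM under FSS and 0.729, 0.664 and 0.614 CPM static) and had at most 5 counts in any DAOY library. Its call was lost without FSS library 1 (1.10) or 2 (1.04), or static library 1 (1.22), 2 (1.14) or 3 (1.09) of ONS76.

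Members called in neither line were mostly low. H2BC18 gave 0.58 ± 0.294 in ONS76 and 0.42 ± 0.189 in DAOY, and H3C12 0.56 ± 0.271 and 0.50 ± 0.259, and none passed the threshold (adjusted p 0.147, 0.0781, 0.131 and 0.131 in that order). H3C12 had 1.13, 1.54 and 1.20 CPM in ONS76 FSS libraries and 0.637, 1.16 and 0.865 CPM in static ONS76, which overlapped. In DAOY it had 1.28, 1.40 and 1.38 CPM under FSS and 1.05, 0.930 and 0.896 CPM static, which did not. H2BC17 gave 1.12 ± 0.469 in ONS76 on at most 0.466 CPM in any library of that line, and H3C2 gave -1.17 ± 0.513 on at most 0.546 CPM. H2AC12, H2AC14, H3C3, H3C13 and H4C2 had standard errors above 0.5 in DAOY, as did H2AC13, which was called in ONS76.

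**Figure D2:**
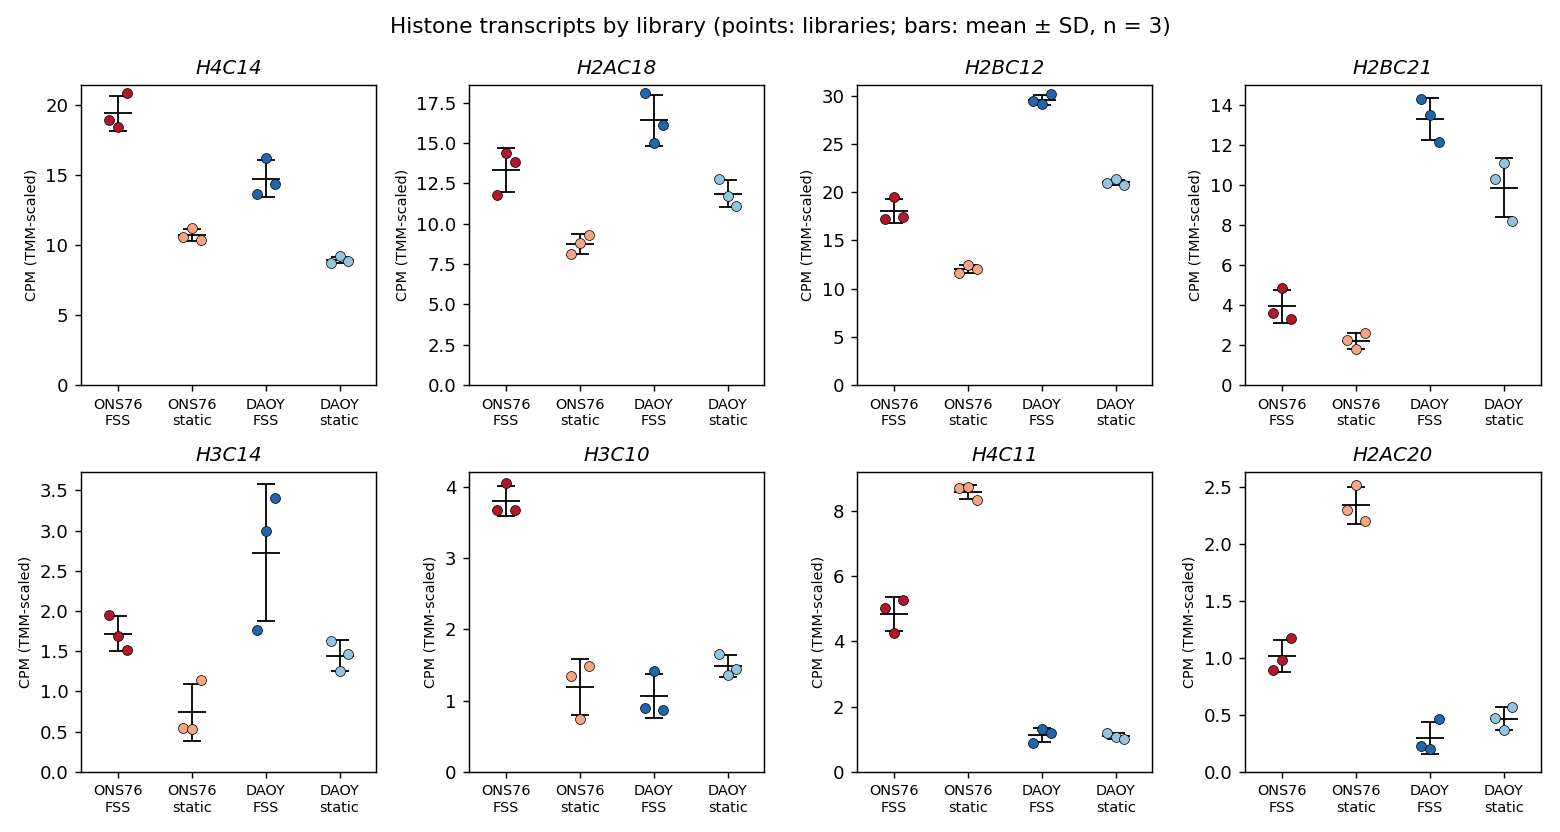
CPM (TMM-scaled, y axes from 0) of 8 members by library. Points are libraries, bars are mean ± SD (n = 3). H4C14 and H2BC12 stand higher under FSS in both lines, H4C11 and H2AC20 stand lower under FSS in ONS76, and H3C10 stands apart between conditions in ONS76 and overlaps in DAOY, with a called difference of -2.14.

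By place, the 1q21 cluster held most of the genes called in both lines. Of its 10 members, 7 were higher and 1 lower in ONS76, and 7 were higher and none lower in DAOY, with median log2 fold changes of 0.72 and 0.47. That is 80% and 70% of these members, against 28.0% and 39.7% of all tested genes in ONS76 and DAOY, and it includes 3 copied pairs. In the centromeric block of 6p22, 4 were higher and 2 lower of 13 tested in ONS76, and 2 were higher and none lower in DAOY. This block thus had 46.2% of its members called in ONS76, and in DAOY 15.4%, below the share of all tested genes. The difference between the clusters was not tested.

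**Figure D3:**
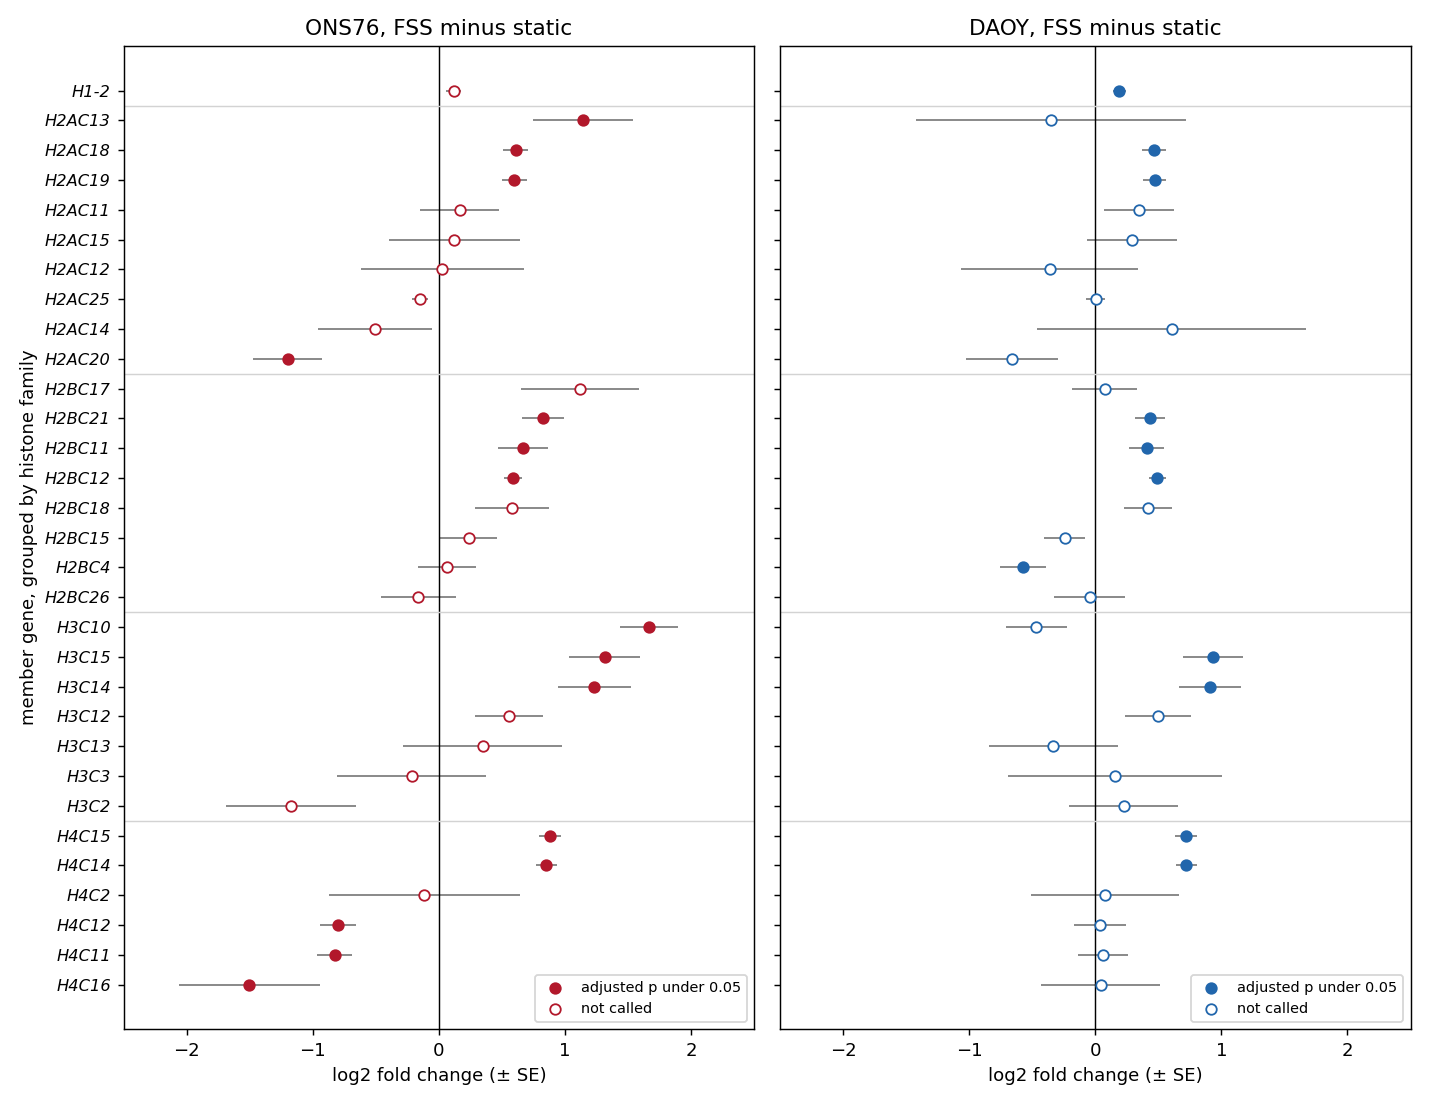
Log2 fold change ± SE of the 31 tested members, FSS minus static, in each line, grouped by family. Filled points passed the adjusted p of 0.05 over all tested genes. The values run from -1.50 to 1.67 in ONS76 and from -0.66 to 0.93 in DAOY.

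Members were also grouped by where their annotated transcript ends. Of the 13 whose transcript runs more than 100 bases past the stem-loop, 12 were tested, and 6 were higher and 1 lower in ONS76 (median 0.70), and 5 higher and none lower in DAOY (median 0.38). Of the 5 that end within 100 bases of it, 3 were higher and 1 lower in ONS76, and 2 higher in DAOY. Of the 14 without an annotated stem-loop, 2 were higher and 2 lower in ONS76, and 3 higher and 1 lower in DAOY. This group is mixed, since H2BC11 and H2BC4 in it have annotated transcripts that run more than 100 bases past the stop codon. With 28.0% of all tested genes called in ONS76 and 39.7% in DAOY, counts of this size in DAOY lie near or below those of genes at large, and nothing is read from them. Such groups are small, share copied pairs, and were not tested against each other.

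Of 27 tested S phase genes, 23 were lower and none higher under FSS in ONS76 (median -0.35), and 25 were lower and none higher in DAOY (median -0.45). Among all tested genes 13.9% were lower in ONS76 and 20.1% in DAOY, with medians of 0 and 0.00. TK1, thymidine kinase, fell by 0.82 on the log2 scale in ONS76 and by 1.26 in DAOY (adjusted p 4.72e-15 and 2.87e-19). LIG1, the DNA ligase of replication, fell by 0.68 and 1.52. CHAF1B, a subunit of the chromatin assembly factor that deposits new histones, had 16.7, 16.5 and 16.2 CPM in ONS76 FSS libraries, against 29.2, 25.0 and 29.6 CPM in static ONS76. In DAOY it had 10.2, 10.1 and 9.81 CPM under FSS, against 26.7, 23.1 and 27.3 CPM static. CHAF1B thus fell by 0.76 on the log2 scale in ONS76 and by 1.35 in DAOY, with no overlap in either line. Of 22 tested histone chaperones and import genes, 5 were higher and 11 lower in ONS76, and 4 higher and 13 lower in DAOY, or 72.7% and 77.3% called in either direction, against 28.0% and 39.7% of all tested genes.

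**Figure D4:**
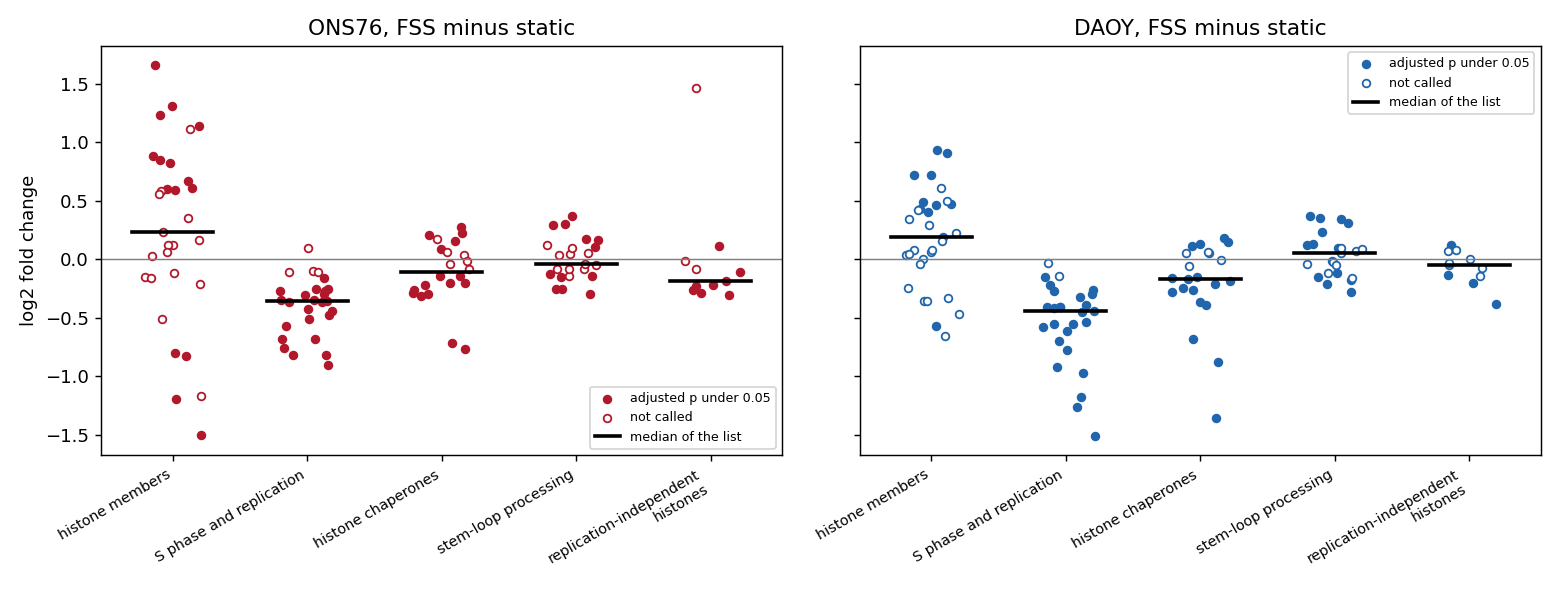
Log2 fold change, FSS minus static, of the members and of 4 gene lists, in each line. Points are genes, filled where adjusted p was under 0.05, and black lines are medians. The median of the members is 0.24 in ONS76 and 0.19 in DAOY, and that of the S phase genes is -0.35 and -0.45.

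The genes that process histone mRNA moved in both directions. SLBP, which binds the stem-loop, had 54.1, 56.1 and 57.4 CPM in ONS76 FSS libraries, against 68.2, 65.0 and 66.5 CPM in static ONS76 (-0.25 ± 0.0467, adjusted p 7.86e-05), and gave -0.11 in DAOY (adjusted p 0.0506). ZNF473, a protein of the U7 complex, gave 0.10 and 0.09 with no call. NCBP1, a subunit of the nuclear cap-binding complex, rose by 0.29 in ONS76 and 0.37 in DAOY. TUT7, a uridylyl transferase of histone mRNA decay, rose by 0.37 and 0.35. Over 23 tested genes of this list, 6 were higher and 6 lower in ONS76, and 8 higher and 5 lower in DAOY, or 52.2% and 56.5% called, against 28.0% and 39.7% of all tested genes.

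Of the histone transcription list, NPAT, the coactivator of histone gene clusters, gave 0.01 in ONS76 and -0.04 in DAOY, and CASP8AP2 0.06 and 0.07, with no call in either line. HINFP, an activator of H4 genes, gave 0.08 in ONS76 (no call) and 0.14 in DAOY (adjusted p 0.0390). The DAOY call was lost without the filter on low counts (adjusted p 0.0911), and also without any single DAOY library except static library 3 (0.0537 to 0.186). E2F1 fell by 0.76 in ONS76 and by 0.93 in DAOY, and CCNA2, cyclin A2, by 0.52 and 0.55. In all 1 of 13 was higher and 4 lower in ONS76, and 1 higher and 5 lower in DAOY, or 38.5% and 46.2% called, not far from the 28.0% and 39.7% of all tested genes. Of 13 canonical polyadenylation genes, 3 were higher and 1 lower in ONS76, and 5 higher and 3 lower in DAOY (30.8% and 61.5% called). Of 16 tested genes of the cell cycle exit list, 8 were higher and 2 lower in ONS76. In DAOY 8 were higher and 4 lower (62.5% and 75% called). That list also holds D cyclins such as CCND1, which drive the cycle, so its counts are not counts of exit genes alone. CDKN1A, an inhibitor of cyclin-dependent kinases, gave 0.54 in ONS76 (edgeR adjusted p 3.04e-10) and 0.04 in DAOY.

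Replication-independent histone genes are used outside S phase too. Of 11 tested, 1 was higher and 7 lower under FSS in ONS76, and 1 higher and 3 lower in DAOY. That is 72.7% and 36.4% called, against 28.0% and 39.7% of all tested genes, so the DAOY share is no larger than that of genes at large. H3-3A, a gene for H3.3, rose by 0.11 in ONS76 and 0.12 in DAOY (lost without ONS76 FSS library 3, ONS76 static library 3 or DAOY static library 2), and H3-3B gave -0.08 and 0.08 with no call. H2AX fell by 0.23 in ONS76 and gave 0.01 in DAOY, H2AZ1 fell by 0.22 and gave -0.05, and MACROH2A1 fell by 0.26 and 0.38. H2AJ was near 0 in ONS76 and about 2 CPM in DAOY, with no call under FSS. Of 10 histone genes described before as having polyadenylated transcripts, 6 were members and tested (H2AC6, H2BC5, H4C3 and H4C8 were listed at 0). Of these 6, 3 were higher and none lower in ONS76, and 3 higher and 1 lower in DAOY. That is 50% and 66.7% called, against 28.0% and 39.7% of all tested genes.

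Without shaking, members differed between the lines no more often than genes at large. In static ONS76 against static DAOY, 9 of 31 members were higher and 14 lower, 74.2% of the members, against 81.0% of all tested genes (37.9% higher, 43.2% lower). The 9 include H2AC13 and H2AC14, which met the member rule through ONS76 libraries alone. The median difference of the members was -0.43 and that of all tested genes -0.10, a shift that was -0.16 with RLE and -0.32 with upper-quartile scaling. All 8 H2B members were lower or not called, and 7 were called lower in static ONS76. H2BC17 gave -3.45, H2BC18 -2.49, H2BC15 -2.23, H2BC21 -2.15 and H2BC11 -2.07.

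Higher in static ONS76 were H4C11 (2.97 ± 0.161) and H4C12 (2.84), with 8.70, 8.75 and 8.34 CPM for H4C11 in static ONS76 and 1.20, 1.07 and 1.01 CPM in static DAOY. H2AC20 gave 2.32, and H2AC25, the most abundant H2A gene of ONS76, was called higher too. H2AC14 had 36, 22 and 26 counts in static ONS76 libraries and 1, 0 and 2 in static DAOY. H4C14 and H4C15 were called higher in static ONS76 on CPM (0.26 and 0.25) and lay on the other side on TPM, at -0.14 and -0.16, with no call. With upper-quartile scaling they gave 0.04 and 0.03 and were not called, and H4C15 was not called with RLE scaling (0.19).

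**Figure D5:**
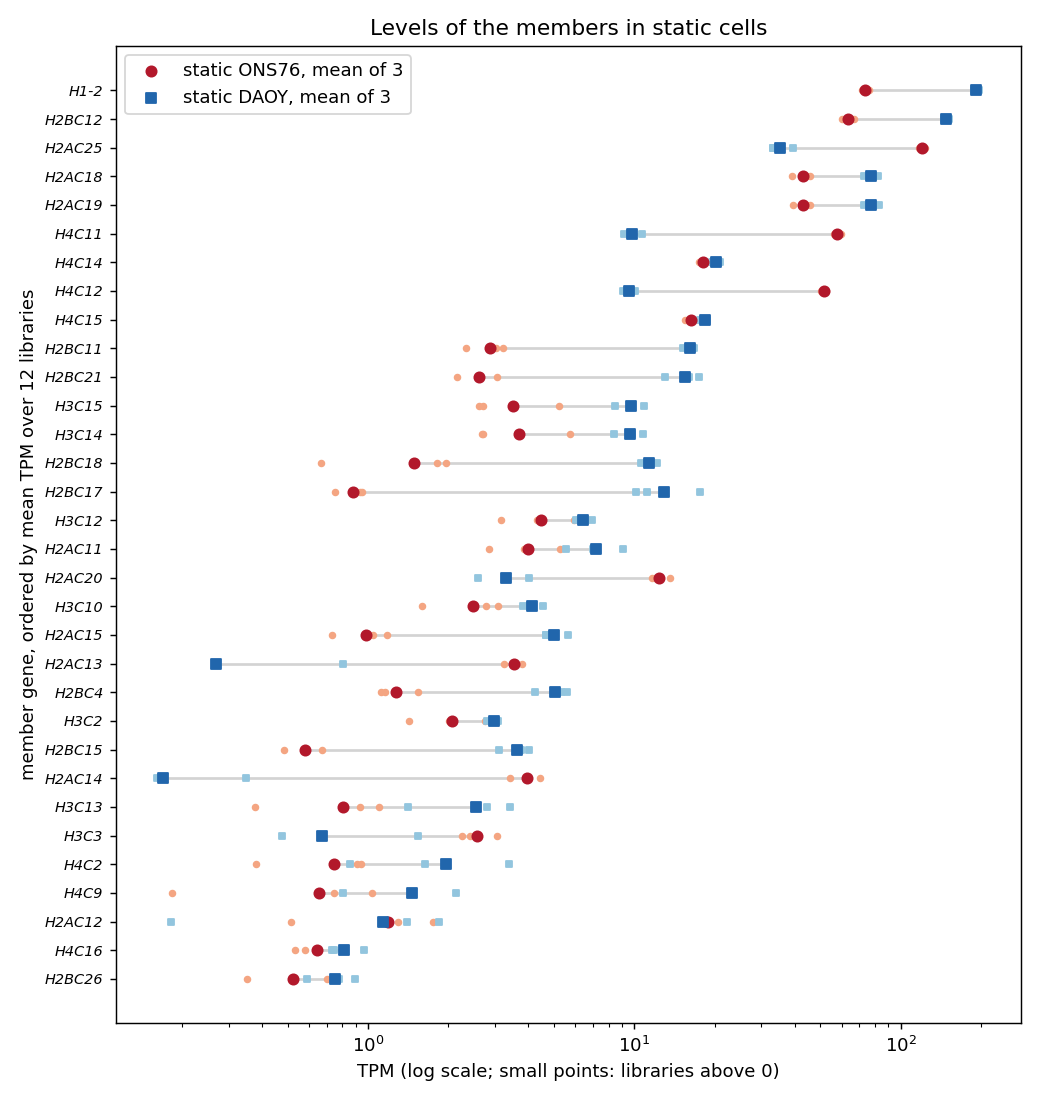
TPM of the 32 members in static cells, on a log axis, with members ordered by mean TPM over the 12 libraries. Large points are means of 3 libraries, small points are libraries above 0. H1-2 and H2BC12 lead in DAOY, H2AC25 leads in ONS76.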

How the data were processed

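RNA of 12 libraries was measured, 3 in each of 4 groups taken from the sample titles. The authors deposited raw counts per gene, with TPM values of the same rows in a second table. HISAT2 2.2.1, the build GRCh38 and featureCounts are named per the submitters' processing notes. Annotation, strand and overlap settings were not given in sources used here, so reads of near-identical, overlapping or antisense genes may be assigned wrongly.

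Genes were kept by filterByExpr, leaving 19631 genes with 99.96% of counts. Counts were fitted with edgeR 4.0.16 in R 4.3.3 (quasi-likelihood, TMM, 1 mean per group, all 12 libraries). Tests were two-sided, with Benjamini-Hochberg adjustment over all tested genes. The common biological coefficient of variation was 4.87%.

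Alternatives used DESeq2 1.42.0, limma 3.58.1 on log2(TPM + 1) and log2(TPM + 0.1), other scalings and filters, and left-out libraries. Named members were the 3 most abundant of each family by TPM and up to 6 per direction of each contrast among called members at 1 CPM or more. Further genes, including H4C16 and H2AC14, were named after their values were seen. The result of 1 gene that the rule takes is not reported here. The members and lists were chosen with earlier results of these data known. Promoters came from RefSeq (GRCh38.p14), transcripts from GENCODE 29 (GRCh38).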

Additional observations from a re-analysis of the deposited data

Results flagged for a closer look

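The response to FSS differed between DAOY and ONS76 for 23 named genes (edgeR interaction test, adjusted p under 0.05). The named list genes include those with the smallest p under FSS in these data, so 23 is not set against a share of all genes. Of the 31 tested members 9.68% were called, and of all tested genes 19.1%. Values below are the DAOY response minus the ONS76 response on the log2 scale. Among the histone members, H3C10 gave -2.14, H4C11 0.89 and H4C12 0.84, where the last pair shares its coding sequence.

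Among genes of the histone chaperone list, CHAF1B gave -0.59, ANP32E -0.39 and CABIN1 -0.16. Replication-independent histone genes gave 0.23 for H2AX, 0.18 for H2AZ1 and 0.16 for H3-3B. In the transcription and processing lists, TRRAP gave -0.46, POU2F1 -0.32 and SRRT 0.39.

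S phase genes gave -0.84 for LIG1, -0.44 for TK1 and -0.22 for RRM2. In the cell cycle exit list, CDKN1A gave -0.50, CDKN2C -0.39 and BTG1 0.18. CCND1, a D cyclin that drives the cycle and is held in the same list, gave 0.71. Polyadenylation genes gave 0.33 for PCF11, 0.27 for RBBP6, -0.25 for CPSF6 and -0.24 for PAPOLA.

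Of these calls, 9 were lost under some of the 22 alternatives run for each. H3-3B was lost under 10 (with RLE scaling among them, adjusted p 0.0531), CABIN1 under 9, H2AZ1 under 8, BTG1 under 7, H2AX under 3 and POU2F1 under 3. RRM2 and H4C12 were lost under 2 each and H4C11 under 1. Leaving out a library, or static ONS76 libraries 1 and 2 together, was among the alternatives that ended each of the 9 calls.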

How the results depend on the processing

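Of 52 member calls over the 4 contrasts, 34 held under every alternative that could be run for them (21 to 23 a call) and 18 were lost under at least 1. Without static ONS76 libraries 1 and 2 (set apart by earlier results of these data, and left out as an alternative chosen after seeing the data), 6 members were higher and 2 lower in ONS76, and 0 were higher in the difference of responses. With limma on TPM, 2 were lower in DAOY with either pseudocount, and 2 lower in the difference with a pseudocount of 1. H4C14 and H4C15 reversed between static lines with limma on log2(TPM + 1), at -0.14 and -0.16, and on log2(TPM + 0.1), at -0.15 and -0.17.

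The log2 ratio of the family sums in ONS76 was 0.014 for H2A as summed CPM and 0.48 without its highest member, and for H4 it reversed to 0.35 as summed CPM and 0.13 without its highest member. In DAOY, H2B gave 0.34 as summed CPM and 0.26 without its highest member, H4 gave 0.65 as summed CPM, and all members gave 0.43 without the highest. The cause was not tested.

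Leaving out 1 library at a time gave 9 to 12 higher and 3 to 5 lower in ONS76, 8 to 11 higher and 0 to 2 lower in DAOY, 1 to 3 higher and 1 lower in the difference, and 8 to 9 higher and 13 to 14 lower between static lines. Family ratios in ONS76 ran from 0.11 to 0.17 for H1, 0.16 to 0.25 for H2A, 0.56 to 0.67 for H2B, 0.80 to 1.02 for H3, -0.22 to -0.10 for H4 and 0.18 to 0.22 for all members. In DAOY they ran from 0.17 to 0.22, 0.32 to 0.42, 0.40 to 0.46, 0.50 to 0.76, 0.40 to 0.58 and 0.35 to 0.38 in the same order.

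Same-numbered libraries did not deviate together (correlations -0.0213 to 0.0111 in ONS76 and -0.0344 to 0.0839 in DAOY). With the replicate number as a block, 11 members were higher and 4 lower in ONS76, 10 higher and 1 lower in DAOY, 2 higher and 1 lower in the difference, and 8 higher and 13 lower between static lines.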
